A study of Homo sapiens with 24 samples.

Results

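The 10 genes described here are ATF4, 5 genes that the transcription factor ATF4 is known to regulate (DDIT3, TRIB3, CHAC1, SESN2 and ASNS) and 4 enzymes of serine synthesis and use (PHGDH, PSAT1, PSPH and SHMT2). They were chosen by symbol, as the rows of the count and TPM tables whose Ensembl ID maps to these names. All 10 were found among 37247 gene IDs, and all 10 had enough counts to be among the 14986 genes tested. RNA was sequenced in 24 libraries of MDA-MB-231 cells, which derive from a human triple-negative breast cancer and look mesenchymal, to see what overexpression of the SRF coactivator MRTF-A does to the transcriptome.

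A library belonged to 1 of 8 groups, with 3 libraries in each. WT cells carried inducible wild-type MRTF-A, dSAP and dSRF cells inducible mutants of it, and control cells none that the labels name. The labels do not spell out dSAP and dSRF, and do not say whether a line was 1 clone or a pool. Each line was grown as 3D culture, on matrigel (a basement membrane gel) with matrigel also in the medium, and as 2D culture on plates. All groups, control included, are labelled with 1 ug/ml doxycycline for 72 h, so the drug itself was not compared. Nothing says that the 3 libraries of a group were separate cultures, so p-values measure a spread between libraries that may be technical. For each gene that spread was estimated from all 24 libraries in 1 fit, not only from the libraries compared. A library outside a comparison can therefore change the calls in it.

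In the integrated stress response, kinases that sense amino acid shortage, misfolded protein, haem shortage or viral RNA phosphorylate the translation factor eIF2. General protein synthesis falls and translation of the ATF4 mRNA rises. ATF4 protein then switches on genes of amino acid synthesis and uptake, tRNA charging and redox balance, among them the serine pathway, which makes serine from a glycolysis intermediate and passes its carbon to folate. ATF4 is regulated in large part at translation, and no protein was measured here.

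MRTFA, the induced gene, was read first as a check of the titles. The 18 libraries titled WT, dSAP or dSRF held 664 to 10716 CPM (counts scaled to library size, TMM-normalised), and the 6 titled control 28.8 to 39.1 CPM. The lines were not alike in MRTFA. It averaged 4740 ± 195 CPM in 2D WT, 9141 ± 442 CPM in 2D dSAP and 3237 ± 107 CPM in 2D dSRF (mean ± SD). In 3D it averaged 4516 ± 85.3 CPM in WT, 10504 ± 294 CPM in dSAP and 3454 ± 2416 CPM in dSRF. The genotype field disagrees with the title in 16 of 24 libraries, and the titles were used. The library labelled 3D dSRF 1 stood apart, with 664 CPM of MRTFA against 4840.3 and 4857 CPM in the other 3D dSRF libraries, and the main 3D dSRF results are given with and without it. Total counts ran from 13968800 to 23023300. VIM, CD44, AXL, CAV1, LGALS1 and PLAUR, listed as present in this line, were at 113 TPM or more in every library. ESR1, PGR and KRT20, listed as low or absent, were at 0.230 TPM or less. EPCAM, an epithelial adhesion gene that is usually low in this line, averaged 205 TPM in 3D dSRF (104 TPM in 3D dSRF 1, 248 and 264 TPM in the others) and 174 TPM in 2D dSRF, against 29.6 to 46.8 TPM in the other groups. CDH1, another epithelial adhesion gene listed as low or absent in this line, stayed at 0.024 to 1.98 TPM over all libraries. Of 8 markers of leukocytes, endothelium and fibroblasts, PTPRC, CD3E, PECAM1, CDH5 and DCN stayed at 0.263 TPM or less, while CD14, PDGFRB and LUM reached 18.2, 19.6 and 18.7 TPM. PDGFRB was lowest in dSRF (1.26 TPM in 3D and 2.17 TPM in 2D), and the part of these markers in the results was not tested.

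On GRCh38, as GENCODE 29 annotates it, ATF4 lies on chromosome 22 (39519695 to 39522685) and CHAC1 on chromosome 15 (40952962 to 40956519). ASNS and PSPH lie on chromosome 7, DDIT3 and SHMT2 on chromosome 12, PHGDH and SESN2 on chromosome 1, PSAT1 on chromosome 9 and TRIB3 on chromosome 20. Per length, in TPM (read density scaled to the same total in each library) averaged over the 8 groups, ATF4 was the most abundant of the 10 genes at 184 TPM, followed by SHMT2 at 171 TPM and PSAT1 at 116 TPM. ASNS and PSPH followed at 40.9 and 39.8 TPM, TRIB3 at 26.3, DDIT3 at 22.9, CHAC1 at 15.0, SESN2 at 14.5 and PHGDH at 4.71 TPM. The line is known for low PHGDH, the enzyme of the first step of serine synthesis, which had 15 to 271 counts per library, with the lowest count of any of the 10. PSPH is uncertain, because a near-identical pseudogene, PSPHP1, was itself listed at 8.65 to 25.1 TPM (at most 25 counts). DDIT3 overlaps MARS1 on the opposite strand, with 1457 to 3593 counts. The library kit keeps strand, but no source used here says whether the counting used it.

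The short sequence at which ATF4 binds with C/EBP partners, the C/EBP-ATF response element, has the core TGATGNAA. RefSeq promoters (GRCh38.p14, 250 bases before to 50 after a start site) were listed for 8 of the 10 genes, 13 promoters in all. On either strand the core was found in promoters of 2 of these genes, ASNS and CHAC1, that is 2 of 8 genes, while 4.46% of all 27305 genes with a listed promoter had a match (3.62% of the 35116 promoters). ASNS has another listed promoter without it. The bases before the start site of both are shown because these genes carry the match, with the match in capitals. In ASNS (chr7:97872409-97872658, minus strand) it begins 68 bases upstream, and in CHAC1 (chr15:40953221-40953470, plus strand) it lies on the other strand and begins 209 bases upstream, so that it reads as its reverse complement. The CArG box, at which SRF binds, was found in 0 of the 13 promoters and in 1.29% of all listed promoters. At so low a share 0 of 13 was likely beforehand, and some of the 13 promoters overlap, so nothing is read from it.
ASNS: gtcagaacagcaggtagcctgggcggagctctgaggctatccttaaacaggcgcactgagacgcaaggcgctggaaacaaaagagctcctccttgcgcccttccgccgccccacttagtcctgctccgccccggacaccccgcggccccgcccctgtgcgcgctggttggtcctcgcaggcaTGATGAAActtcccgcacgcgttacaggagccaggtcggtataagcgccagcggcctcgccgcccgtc
CHAC1: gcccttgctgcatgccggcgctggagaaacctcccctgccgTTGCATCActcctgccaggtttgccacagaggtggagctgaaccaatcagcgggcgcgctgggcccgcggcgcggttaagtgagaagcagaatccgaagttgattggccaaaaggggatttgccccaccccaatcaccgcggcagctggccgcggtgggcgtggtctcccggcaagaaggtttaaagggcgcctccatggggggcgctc

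In 2D culture all 10 genes were higher in WT than in control, by edgeR's quasi-likelihood test with Benjamini-Hochberg adjustment over all genes at 0.05, and 6 of them by at least 2-fold. Among all genes tested 20.1% were higher and 5.1% higher by at least 2-fold, while 19.2% were lower (51.1% of the called genes were higher, and 37.8% of those called by limma on log2(TPM + 1)). The median log2 difference (log2 of WT over control) was 1.11 over the 10 genes and -0.02 over all genes. In bulk RNA, a gene made in more of the cells cannot be told apart from a gene made at a higher level in each cell.

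ATF4 itself had 234, 230.1 and 229.6 CPM in 2D WT, against 122, 109 and 122 CPM in 2D control. All WT libraries lay far above all control libraries, and the log2 difference was 0.97 ± 0.08 (SE of the fit, n = 3 each, adjusted p = 3.55e-09). DDIT3, which encodes CHOP, a stress-induced partner of ATF4, had 15.5, 17.1 and 16.0 CPM in 2D WT, against 7.29, 5.91 and 6.91 CPM in 2D control. The groups did not overlap, and the difference was 1.27 ± 0.14 (adjusted p = 5.23e-07). TRIB3, a pseudokinase that restrains ATF4 and CHOP, had 37.6, 41.1 and 39.7 CPM in 2D WT, against 21.5, 24.7 and 22.3 CPM in 2D control, again without overlap (0.79 ± 0.11, adjusted p = 6.24e-06).

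CHAC1, an enzyme that degrades glutathione, showed the largest difference of the 10 in 2D WT. It had 13.7, 15.7 and 14.3 CPM in 2D WT, against 2.82, 2.95 and 3.75 CPM in 2D control. This was 4.58-fold higher, with every WT library above every control library (2.20 ± 0.15, adjusted p = 3.78e-10). ASNS, asparagine synthetase, had 73.1, 63.2 and 68.4 CPM in 2D WT, against 27.5, 26.3 and 27.7 CPM in 2D control (1.33 ± 0.09, adjusted p = 4.35e-10). SESN2, a leucine sensor that restrains mTORC1, had 28.7, 27.0 and 26.1 CPM in 2D WT, against 13.9, 12.1 and 14.1 CPM in 2D control (1.02 ± 0.12, adjusted p = 7.88e-07). Neither gene's groups overlapped.

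Along the serine pathway the differences in 2D WT were unequal. PHGDH had 2.88, 3.21 and 3.82 CPM in 2D WT, against 1.26, 1.73 and 1.36 CPM in 2D control (1.19 ± 0.19, adjusted p = 5.62e-05). PSAT1, the transaminase of the second step, had 119.8, 111 and 113 CPM in 2D WT, against 32.7, 25.2 and 33.4 CPM in 2D control (1.91 ± 0.07, adjusted p = 8.31e-14). PSPH, the phosphatase of the last step, had 35.4, 39.2 and 36.3 CPM in 2D WT, against 32.9, 31.4 and 31.5 CPM in 2D control. Every WT library was above every control library for all of these enzymes, but for PSPH the gap was narrow and the difference small (0.21 ± 0.08, adjusted p = 0.0405). Its call was lost without 2D control 1, 2 or 3 or 2D WT 2 or 3 (adjusted p = 0.0586 to 0.163) and on the TPM values. SHMT2, the mitochondrial enzyme that turns serine into glycine and a folate-bound carbon unit, was 1.28-fold higher (0.35 ± 0.05, adjusted p = 3.38e-06), with 149.6, 151 and 156 CPM in 2D WT, against 124, 115 and 119 CPM in 2D control. On log2(TPM + 1) the difference of SHMT2 was 0.18, and it was called there too.

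**Figure D1:**
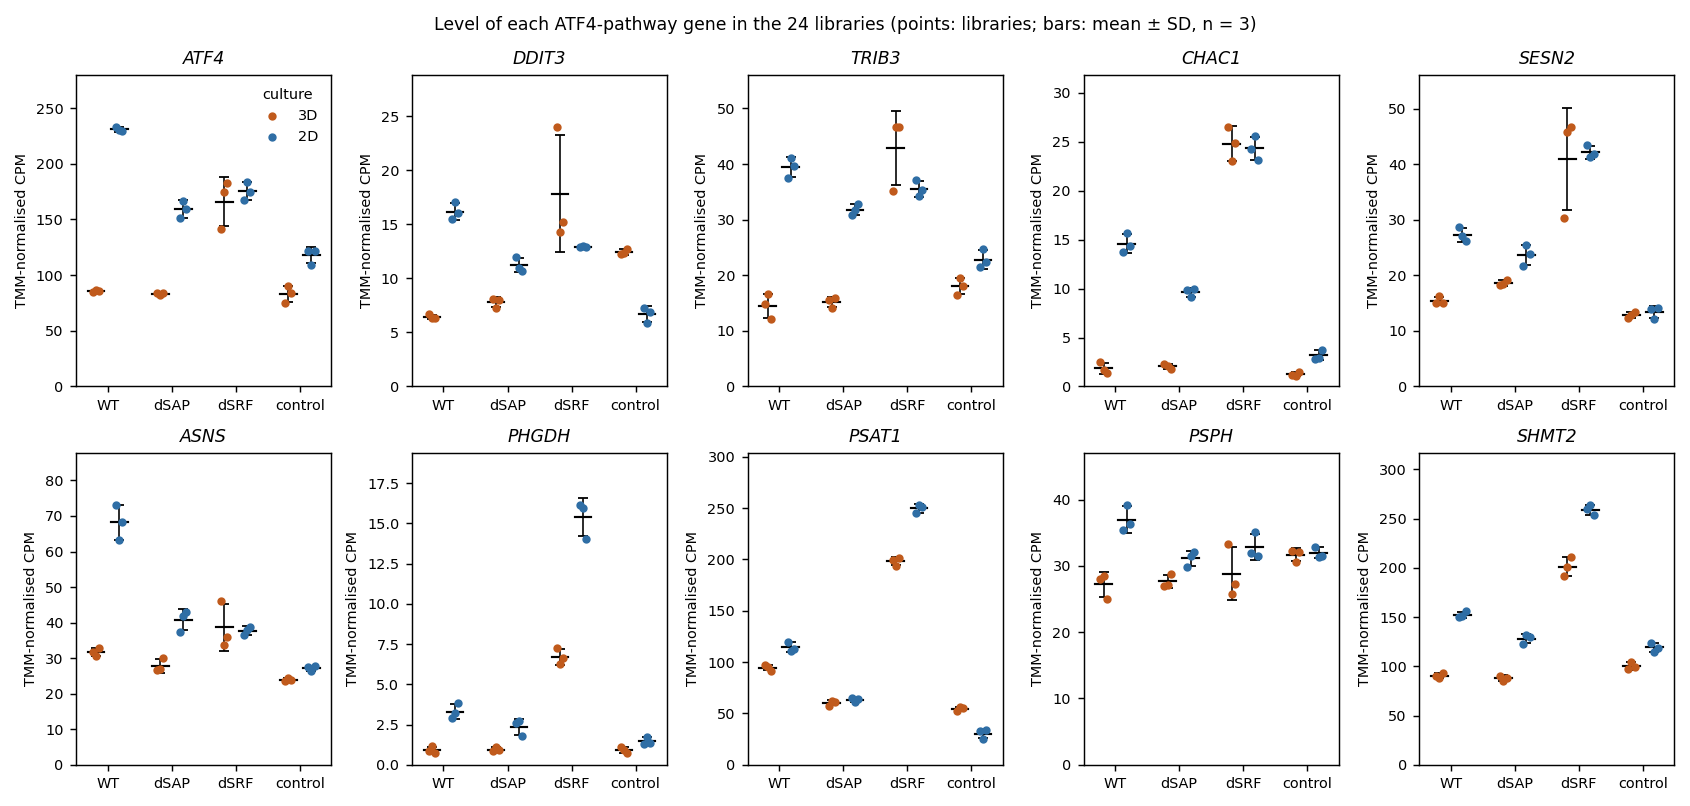
Level of each of the 10 genes in the 24 libraries, in TMM-normalised CPM (y axis, starting at 0) by line (x axis) and culture (colour). Points are libraries and bars the mean ± SD (n = 3). CHAC1 lies between 23.0 and 26.6 CPM in all 6 dSRF libraries and at 3.75 CPM or less in all 6 control libraries, and ATF4 is highest in 2D WT.

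In 3D culture WT and control differed in both directions. Against 3D control, 3 were higher in 3D WT (PSAT1, ASNS and CHAC1), 4 were lower (DDIT3, TRIB3, PSPH and SHMT2) and 3 were not called (ATF4, PHGDH and SESN2). Among all genes 18% were higher and 17% lower (51.4% of the called genes were higher, and 41.4% of those called by limma on log2(TPM + 1)). Over the 10 genes the median log2 difference was 0.01, against -0.02 over all genes. None of the 10 changed by 2-fold.

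PSAT1 had 97.1, 94.7 and 91.7 CPM in 3D WT, against 52.0, 55.9 and 55.4 CPM in 3D control. The groups were far apart, and PSAT1 was 1.74-fold higher (0.80 ± 0.07, adjusted p = 2.01e-08). ASNS had 31.8, 30.5 and 32.8 CPM in 3D WT, against 23.6, 24.5 and 23.8 CPM in 3D control (0.40 ± 0.09, adjusted p = 0.00159). DDIT3 went the other way, with 6.68, 6.35 and 6.36 CPM in 3D WT, against 12.3, 12.3 and 12.7 CPM in 3D control. Every WT library was below every control library (-0.94 ± 0.14, adjusted p = 2.34e-05). ATF4 had 85.2, 86.3 and 85.9 CPM in 3D WT, against 75.3, 90.4 and 83.6 CPM in 3D control, and the WT libraries lay inside the spread of control. Its difference was 0.05 ± 0.08 (95% interval -0.12 to 0.21, adjusted p = 0.699).

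The smaller calls in 3D WT were less firm. CHAC1 had 2.48, 1.66 and 1.42 CPM in 3D WT, against 1.22, 1.11 and 1.50 CPM in 3D control, with overlap. Its call (0.53 ± 0.18, adjusted p = 0.041) was lost without 3D control 1 or 2 or 3D WT 1 (adjusted p = 0.109 to 0.512), by DESeq2 and on the TPM values, and its difference without 3D WT 1 was 0.26. TRIB3 (-0.32 ± 0.11, adjusted p = 0.0318) was no longer called without 3D control 2 or 3 or 3D WT 1 or 3 (adjusted p = 0.0591 to 0.193), and its difference without 3D WT 3 was -0.20. The calls of PSPH (-0.22 ± 0.08, adjusted p = 0.036) and SHMT2 (-0.15 ± 0.05, adjusted p = 0.0153) were lost without 3D control 1 or 3 or 3D WT 1 or 3 for PSPH (adjusted p = 0.0531 to 0.182), and without 3D control 2 or 3D WT 1 or 2 for SHMT2 (adjusted p = 0.0511 to 0.0835). SESN2, not called here (0.26 ± 0.12, adjusted p = 0.105), was called without the library labelled 3D dSRF 1 (0.26 ± 0.07, adjusted p = 0.00467).

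The effect of WT was tested for a difference between the cultures. For all 10 genes it was more negative in 3D than in 2D, against a background of 4.96% of genes with a more negative and 4.22% with a more positive effect. Leaving out the library labelled 3D dSRF 1, 23.8% of all genes and again all 10 were called. The median was -1.02 over the 10 genes and 0.01 over all genes on the log2 scale. DDIT3 differed most, at -2.21 ± 0.20 (adjusted p = 1.2e-06), then CHAC1 at -1.66 ± 0.24 (adjusted p = 0.000128). PSAT1 differed by -1.11 ± 0.10, TRIB3 by -1.11 ± 0.15, ATF4 by -0.93 ± 0.11 and ASNS by -0.92 ± 0.13 (adjusted p between 1.2e-06 and 9.61e-05). SESN2 (-0.77 ± 0.17) and SHMT2 (-0.50 ± 0.06) were called as well. PHGDH (-1.22 ± 0.29, adjusted p = 0.0117) and PSPH (-0.43 ± 0.11, adjusted p = 0.0185) were the weakest calls. Both were lost on the TPM values, PHGDH also without 3D control 1 (adjusted p = 0.0623), and PSPH without 2D WT 2 or 3D WT 3 (adjusted p = 0.0566 and 0.0623).

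Genes of the mitochondrial genome held more of the counts in 3D than in 2D for WT, dSAP and control. They held 1.18% to 1.42% in 3D WT, 1.29% to 1.32% in 3D dSAP and 0.940% to 1.45% in 3D control, against 0.511% to 0.773% in 2D WT, 0.549% to 0.686% in 2D dSAP and 0.398% to 0.890% in 2D control. In 3D dSRF they held 0.448% to 0.851%, and in 2D dSRF 0.488% to 0.933%. The part of this difference in the results was not tested.

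**Figure D2:**
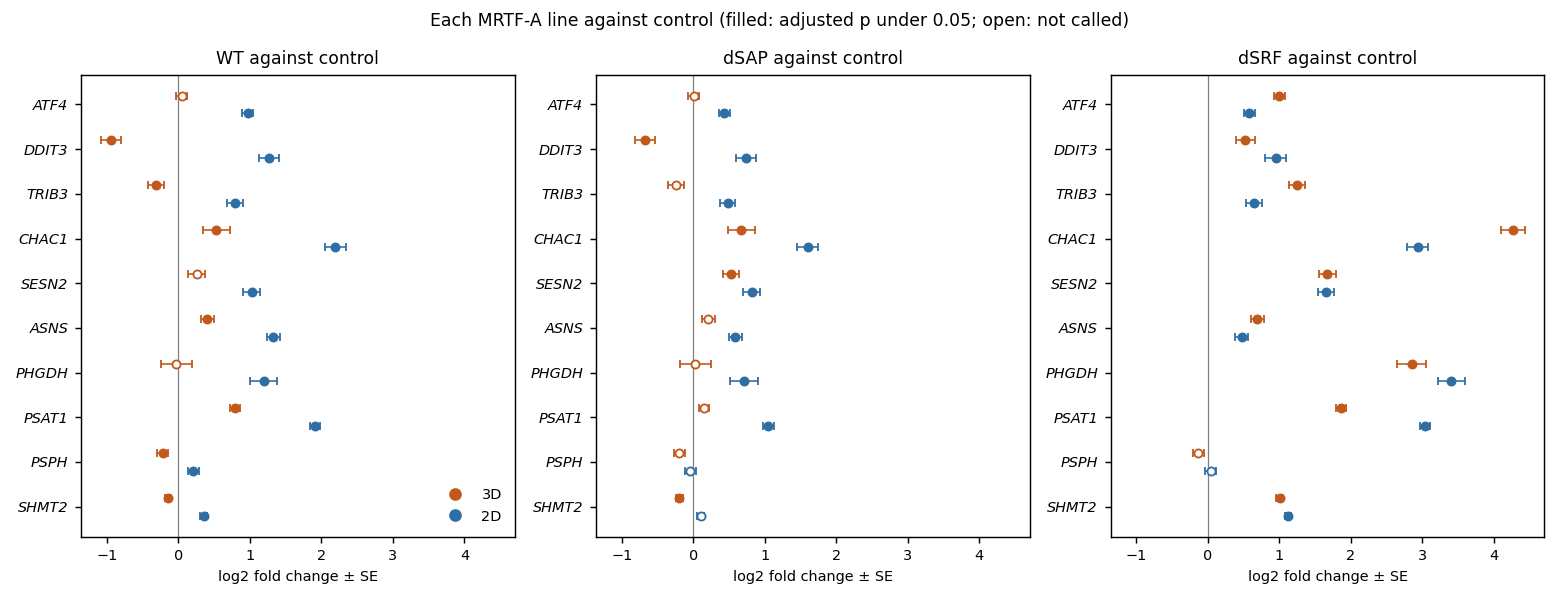
Log2 fold change ± SE (x axis) of each of the 10 genes in the MRTF-A lines against the control of the same culture, 3D above 2D. Filled points are called at an adjusted p under 0.05. In WT and dSAP the 2D points lie to the right of the 3D points for each gene, and in dSRF 9 of 10 genes are called higher in both cultures.

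In the dSAP line in 2D, 8 of the 10 genes were higher than in control and PSPH and SHMT2 were not called, where 17.5% of all genes were higher and 15.4% lower. The median log2 difference was 0.65, against -0.0083 over all genes. The comparisons of the lines share the same control libraries. CHAC1 had 9.84, 9.12 and 9.97 CPM in 2D dSAP, against 2.82, 2.95 and 3.75 CPM in 2D control. It was 3.03-fold higher without overlap (1.60 ± 0.15, adjusted p = 7.85e-08). PSAT1 had 64.9, 60.7 and 64.1 CPM in 2D dSAP, against 32.7, 25.2 and 33.4 CPM in 2D control (1.05 ± 0.07, adjusted p = 1.1e-09). ATF4 had 151, 167 and 159.6 CPM in 2D dSAP, against 122, 109 and 122 CPM in 2D control (0.43 ± 0.08, adjusted p = 0.000177). Each dSAP library was above each control library for these genes. SESN2 (0.82 ± 0.12), DDIT3 (0.74 ± 0.14), PHGDH (0.71 ± 0.20), ASNS (0.59 ± 0.09) and TRIB3 (0.48 ± 0.11) were the others called higher. The call of PHGDH, at 2.59, 2.72 and 1.80 CPM in 2D dSAP, was lost on the TPM values (adjusted p = 0.259 with a pseudocount of 1). SHMT2 (0.11 ± 0.05, adjusted p = 0.0821) was called without 2D dSAP 1 or the library labelled 3D dSRF 1 (adjusted p = 0.0319 and 0.0333).

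In 3D, 2 genes were higher in dSAP than in control, CHAC1 (0.68 ± 0.18, adjusted p = 0.008) and SESN2 (0.53 ± 0.12, adjusted p = 0.00182). Another 2 were lower, DDIT3 (-0.67 ± 0.14, adjusted p = 0.000941) and SHMT2 (-0.19 ± 0.05, adjusted p = 0.00304). Over all genes 16.5% were higher and 13.1% lower, and the medians were 0.02 for the 10 genes and 0.0016 for all genes. DDIT3 had 8.12, 7.25 and 8.05 CPM in 3D dSAP, against 12.3, 12.3 and 12.7 CPM in 3D control, and SESN2 had 18.2, 18.4 and 19.2 CPM in 3D dSAP, against 12.4, 12.9 and 13.4 CPM in 3D control. The groups overlapped for neither. ATF4 had 83.9, 82.2 and 84.0 CPM in 3D dSAP, against 75.3, 90.4 and 83.6 CPM in 3D control, with overlap (95% interval -0.16 to 0.17). The call of CHAC1 was lost without 3D control 2 or 3D dSAP 1 (adjusted p = 0.0512 and 0.0519), and that of SHMT2 on the TPM values (limma, adjusted p = 0.0981 and 0.0994). Without the library labelled 3D dSRF 1, 44.0% of all genes and 7 of the 10 were called, with ASNS higher and TRIB3 and PSPH lower in addition. PSAT1 and PSPH were each also called without 1 library of another line, PSAT1 without 2D control 2 (adjusted p = 0.0181) and PSPH without 3D dSRF 2 (adjusted p = 0.0461).

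The effect of dSAP was more negative in 3D than in 2D for 6 of the 10 genes, where 1.2% of all genes were called in that direction and 1.13% in the other. Leaving out the library labelled 3D dSRF 1, 11.4% of all genes and 7 of the 10 were called. Over all genes 350 were called with all libraries, 206 without 2D dSAP 3, 217 without 3D dSAP 3 and 225 without 3D dSAP 2. These were DDIT3 (-1.42 ± 0.20, adjusted p = 0.000459), PSAT1 (-0.90 ± 0.10, adjusted p = 5.03e-05), TRIB3 (-0.73 ± 0.15), SHMT2 (-0.30 ± 0.06), CHAC1 (-0.93 ± 0.24) and ATF4 (-0.43 ± 0.11). CHAC1 (adjusted p = 0.0425) and ATF4 (adjusted p = 0.0393) were near the threshold. ATF4 was not called without any 1 of 16 of the 24 libraries (adjusted p = 0.0503 to 0.117) and CHAC1 without any 1 of 17 (adjusted p = 0.0508 to 0.169). On the TPM values ATF4 was not called either (limma, adjusted p = 0.103 and 0.109), nor TRIB3 with a pseudocount of 0.1 (adjusted p = 0.0515). SHMT2 was lost without 3D dSAP 2 (adjusted p = 0.0527) and on the TPM values, and ASNS (-0.37 ± 0.13, adjusted p = 0.156) was called without the library labelled 3D dSRF 1 (adjusted p = 0.00677).

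In the dSRF line 9 of the 10 genes were higher than in control in 2D. The background was wide, with 34.5% of all genes higher and 31.5% lower. Of the 10 genes 5 were higher by at least 2-fold, against 14% of all genes. The median log2 difference was 1.03 over the 10 genes and 0.02 over all genes. The largest differences were those of PHGDH and PSAT1, of the first steps of serine synthesis. PHGDH had 16.1, 15.9 and 14.0 CPM in 2D dSRF, against 1.26, 1.73 and 1.36 CPM in 2D control. It was 10.6-fold higher, with no library of either group near the other (3.40 ± 0.19, adjusted p = 1.13e-11). PSAT1 had 245, 253 and 251 CPM in 2D dSRF, against 32.7, 25.2 and 33.4 CPM in 2D control (8.19-fold, 3.03 ± 0.07, adjusted p = 7.59e-17). SHMT2 had 259, 264 and 254 CPM in 2D dSRF, against 124, 115 and 119 CPM in 2D control (1.12 ± 0.05, adjusted p = 8.79e-14). PSPH, between PSAT1 and SHMT2 in the pathway, had 31.9, 35.1 and 31.5 CPM in 2D dSRF, against 32.9, 31.4 and 31.5 CPM in 2D control. Its groups overlapped, and the difference was 0.04 ± 0.08 (95% interval -0.13 to 0.21).

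Among the stress genes in 2D dSRF, CHAC1 had 24.2, 25.6 and 23.2 CPM, against 2.82, 2.95 and 3.75 CPM in 2D control (7.65-fold, 2.93 ± 0.15, adjusted p = 2.16e-12). SESN2 had 43.4, 41.2 and 41.8 CPM in 2D dSRF, against 13.9, 12.1 and 14.1 CPM in 2D control (1.65 ± 0.12, adjusted p = 2.99e-10). Neither overlapped. ATF4 had 168, 184 and 175 CPM in 2D dSRF, against 122, 109 and 122 CPM in 2D control (0.58 ± 0.08, adjusted p = 1.74e-06). DDIT3 (0.95 ± 0.14), TRIB3 (0.64 ± 0.11) and ASNS (0.47 ± 0.09) were higher by less than 2-fold.

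In 3D, dSRF again had 9 of the 10 genes higher than control, 6 of them by at least 2-fold, where 35.1% of all genes were higher, 14.3% by at least 2-fold, and 31.3% were lower. Without the library labelled 3D dSRF 1, 9 were higher and PSPH was lower (-0.26 ± 0.07, adjusted p = 0.00148), where 72.8% of all genes were called. The median over the 10 genes was 1.12, 1.23 without that library, and over all genes 0.02. CHAC1 had 26.6, 23.0 and 24.8 CPM in 3D dSRF, against 1.22, 1.11 and 1.50 CPM in 3D control. That was 19.2-fold, the widest gap of any of the 10 genes in these comparisons with control (4.26 ± 0.16, adjusted p = 3.09e-14), and 4.21 ± 0.16 without 3D dSRF 1. PHGDH had 7.26, 6.25 and 6.61 CPM in 3D dSRF, against 1.10, 0.935 and 0.752 CPM in 3D control (2.85 ± 0.20, adjusted p = 1.86e-10, 2.79 ± 0.21 without 3D dSRF 1). PSAT1 had 199.6, 194 and 201 CPM in 3D dSRF, against 52.0, 55.9 and 55.4 CPM in 3D control (1.86 ± 0.07, adjusted p = 2.42e-14, 1.86 ± 0.06 without 3D dSRF 1). For these genes the library labelled 3D dSRF 1 lay with the others of its group.

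For other genes it did not. ATF4 had 141, 174 and 182 CPM in 3D dSRF, against 75.3, 90.4 and 83.6 CPM in 3D control, with 3D dSRF 1 the lowest of its group (1.00 ± 0.08, adjusted p = 7.96e-10, 1.10 ± 0.06 without it). SESN2 had 30.4, 45.8 and 46.8 CPM in 3D dSRF, against 12.4, 12.9 and 13.4 CPM in 3D control (1.67 ± 0.12, 1.84 ± 0.07 without 3D dSRF 1). TRIB3 had 35.1, 46.7 and 46.7 CPM in 3D dSRF, against 16.5, 19.5 and 18.1 CPM in 3D control (1.25 ± 0.11, 1.37 ± 0.09 without 3D dSRF 1). For SESN2 and TRIB3 too that library was the lowest of dSRF, yet above all control libraries. DDIT3 had 24.1, 14.3 and 15.2 CPM in 3D dSRF, against 12.3, 12.3 and 12.7 CPM in 3D control, with 3D dSRF 1 the highest (0.52 ± 0.13, adjusted p = 0.00208, and 0.24 ± 0.09, adjusted p = 0.0209, without it). Its call was lost in a fit of only the 3D dSRF and 3D control libraries (adjusted p = 0.0933). ASNS, also highest in that library, had 46.2, 33.7 and 36.0 CPM in 3D dSRF, against 23.6, 24.5 and 23.8 CPM in 3D control (0.69 ± 0.09, 0.54 ± 0.07 without it). SHMT2 had 192, 201 and 211 CPM in 3D dSRF, against 97.3, 105 and 99.5 CPM in 3D control (1.00 ± 0.05, 1.03 ± 0.04 without 3D dSRF 1).

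The effect of dSRF differed between the cultures in both directions. It was more positive in 3D for CHAC1 (1.33 ± 0.22, adjusted p = 0.000124), TRIB3 (0.60 ± 0.15, adjusted p = 0.00476) and ATF4 (0.42 ± 0.11, adjusted p = 0.00561), and more negative for PSAT1 (-1.17 ± 0.10, adjusted p = 5.86e-08). The other 6 genes were not called. The call of ATF4 was lost in a fit of only the libraries compared (adjusted p = 0.053), and DDIT3 (-0.42 ± 0.20) was called on the TPM values (adjusted p = 0.033 and 0.028). Over all genes 14.7% had a more positive and 14.6% a more negative effect. Without the library labelled 3D dSRF 1, DDIT3 (-0.70 ± 0.13, adjusted p = 6.11e-05) and PSPH (-0.29 ± 0.09, adjusted p = 0.0103) were called more negative as well, and 43.8% of all genes were called. The control levels of these genes differed too, with PSAT1 at 54.4 ± 2.17 CPM in 3D and 30.4 ± 4.58 CPM in 2D, and CHAC1 at 1.28 ± 0.204 CPM in 3D and 3.17 ± 0.504 CPM in 2D (mean ± SD, n = 3 each).

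The mutants were also compared with WT. MRTFA itself was higher in dSAP than in WT in both cultures, and lower in 2D dSRF than in 2D WT. The part of this in the differences was not tested. In 2D, 7 of the 10 genes were lower in dSAP than in WT with TRIB3, PHGDH and SESN2 not called. Over all genes 7.71% were lower and 5.09% higher (39.8% of the called genes were higher, and 75.5% of those called by limma on log2(TPM + 1)). The 1919 genes called became 4220 without the library labelled 3D dSRF 1 and 1171 without 2D dSAP 1. The median was -0.50 for the 10 genes and 0.00078 for all genes. PSAT1 was lowest relative to WT, at 64.9, 60.7 and 64.1 CPM in 2D dSAP, against 119.8, 111 and 113 CPM in 2D WT (-0.86 ± 0.07, adjusted p = 1.37e-07). ASNS had 37.4, 41.9 and 43.1 CPM in 2D dSAP, against 73.1, 63.2 and 68.4 CPM in 2D WT (-0.74 ± 0.09, adjusted p = 1.22e-05). ATF4 (-0.54 ± 0.08), CHAC1 (-0.59 ± 0.14), DDIT3 (-0.53 ± 0.14) and SHMT2 (-0.25 ± 0.05) were lower too, without overlap. SHMT2 was not called on log2(TPM + 1) (-0.16, limma, adjusted p = 0.0709), nor CHAC1 on log2(TPM + 0.1) (adjusted p = 0.0682). The call of DDIT3 was lost without 2D WT 2 or 2D dSAP 3 (adjusted p = 0.0592 and 0.0607). That of PSPH (-0.25 ± 0.08, adjusted p = 0.0436) was lost without any 1 of 19 of the 24 libraries (adjusted p = 0.0509 to 0.178). TRIB3 (adjusted p = 0.0596) was called lower without 3D WT 2 or 3 or the library labelled 3D dSRF 1 (adjusted p = 0.00392 to 0.0472), and SESN2 without the last of these (adjusted p = 0.0228).

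In 3D, PSAT1 alone of the 10 genes differed between dSAP and WT, at 57.6, 61.8 and 61.5 CPM in 3D dSAP, against 97.1, 94.7 and 91.7 CPM in 3D WT (-0.65 ± 0.07, adjusted p = 2.57e-06). Of all genes 6.63% were lower and 5.45% higher (45.1% of the called genes were higher, and 69.0% of those called by limma on log2(TPM + 1)). The 1810 genes called became 4149 without the library labelled 3D dSRF 1 and 1186 without 3D dSAP 1. Without the library labelled 3D dSRF 1, DDIT3 (0.27 ± 0.09, adjusted p = 0.0295) and SESN2 (0.27 ± 0.07, adjusted p = 0.00406) were called higher and ASNS (-0.19 ± 0.06, adjusted p = 0.0231) lower in dSAP as well.

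In 2D, dSRF and WT differed in both directions. Higher in dSRF than in WT were 5 genes: PHGDH (2.21 ± 0.18, adjusted p = 2.22e-09), PSAT1 (1.12 ± 0.07), SHMT2 (0.77 ± 0.05), CHAC1 (0.74 ± 0.13) and SESN2 (0.63 ± 0.11). Lower were 3: ASNS (-0.85 ± 0.09, adjusted p = 7.84e-08), ATF4 (-0.40 ± 0.08, adjusted p = 0.000127, and -0.22 on log2(TPM + 1)) and DDIT3 (-0.32 ± 0.14, adjusted p = 0.0457). ASNS had 36.5, 37.9 and 38.9 CPM in 2D dSRF, against 73.1, 63.2 and 68.4 CPM in 2D WT. Every library of dSRF was below every library of WT for ASNS and ATF4, and above for the 5 genes named first. Of all genes 33.6% were higher and 30.4% lower (52.5% of the called genes were higher, and 66.8% of those called by limma on log2(TPM + 1)), and the median over all genes was 0.03 on counts and 0.18 on log2(TPM + 1). DDIT3 was lost by DESeq2 (adjusted p = 0.0618), on the TPM values and without any 1 of 16 of the 24 libraries (adjusted p = 0.0515 to 0.122), and PSPH (-0.17 ± 0.08, adjusted p = 0.0655) was called lower without any 1 of 5 (adjusted p = 0.0135 to 0.0445).

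In 3D, 9 of the 10 genes were higher in dSRF than in WT and PSPH was not called, where 34.2% of all genes were higher and 31.6% lower. On log2(TPM + 1) the median over all genes was 0.10, and on counts 0.02. Without the library labelled 3D dSRF 1, 8 were higher, since ASNS (0.29 ± 0.09, adjusted p = 0.00825) was then not called (0.13 ± 0.07, adjusted p = 0.0867). CHAC1 differed most (3.73 ± 0.16, 3.68 ± 0.15 without that library), then PHGDH (2.88 ± 0.20, 2.81 ± 0.21 without that library, and 1.78 on log2(TPM + 1)), TRIB3 (1.56 ± 0.11, 1.69 ± 0.09 without that library) and DDIT3 (1.47 ± 0.14, 1.19 ± 0.09 without that library). ATF4 differed by 0.95 ± 0.08 (1.05 ± 0.06 without that library), with dSRF higher, while in 2D it was lower in dSRF than in WT.

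Culture was compared within each line. In control, 3D had 2 of the 10 genes higher than 2D (DDIT3 and PSAT1) and 5 lower (CHAC1, PHGDH, ATF4, TRIB3 and SHMT2), where 23% of all genes were higher and 24.4% lower (48.6% of the called genes were higher, and 62.2% of those called by limma on log2(TPM + 1)). DDIT3 had 12.3, 12.3 and 12.7 CPM in 3D control, against 7.29, 5.91 and 6.91 CPM in 2D control (0.89 ± 0.14, adjusted p = 3.39e-05). PSAT1 was 1.78-fold higher (0.84 ± 0.07, adjusted p = 1.88e-08), and CHAC1 stood at 1.22, 1.11 and 1.50 CPM in 3D control, against 2.82, 2.95 and 3.75 CPM in 2D control (-1.30 ± 0.18, adjusted p = 5.31e-06). The groups did not overlap for these genes or for ATF4 (-0.50 ± 0.08). The call of TRIB3 (-0.34 ± 0.11) was lost without 2D control 2 or 3D control 1 (adjusted p = 0.0706 and 0.0721) and on log2(TPM + 1), and that of PHGDH (-0.64 ± 0.21) without 2D control 2 or 3D control 2 or 3 (adjusted p = 0.0581 to 0.169). PHGDH was also not called by DESeq2 (adjusted p = 0.059), with no filter (0.056), from only the libraries compared (0.0792) or on the TPM values (0.219 and 0.159). ASNS (-0.18 ± 0.09) was called lower without the library labelled 3D dSRF 1 (adjusted p = 0.0188).

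In WT all 10 genes were lower in 3D than in 2D, 6 of them by at least 2-fold, where 25.7% of all genes were lower, 4.22% by at least 2-fold, and 24.4% were higher (48.7% of the called genes were higher, and 63.8% of those called by limma on log2(TPM + 1)). The median was -1.21 over the 10 genes and 0.0041 over all genes. ATF4 had 85.2, 86.3 and 85.9 CPM in 3D WT, against 234, 230.1 and 229.6 CPM in 2D WT (-1.43 ± 0.08, adjusted p = 3.21e-11). CHAC1 had 2.48, 1.66 and 1.42 CPM in 3D WT, against 13.7, 15.7 and 14.3 CPM in 2D WT (-2.96 ± 0.16, adjusted p = 2.02e-11). No library of 3D WT reached the lowest of 2D WT for any of the 10 genes. PHGDH (-1.85 ± 0.20, and -1.02 on log2(TPM + 1)), TRIB3 (-1.44 ± 0.11), DDIT3 (-1.32 ± 0.14) and ASNS (-1.11 ± 0.09) were the others past 2-fold. PSAT1 was least affected (-0.28 ± 0.07, adjusted p = 0.00238), and its call was lost on the TPM values (adjusted p = 0.0652 with a pseudocount of 1).

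In dSAP, 8 of the 10 genes were lower in 3D than in 2D, with PSAT1 and PSPH not called, where 23.5% of all genes were lower and 24.2% higher (50.7% of the called genes were higher, and 64.0% of those called by limma on log2(TPM + 1)). CHAC1 had 2.25, 2.11 and 1.79 CPM in 3D dSAP, against 9.84, 9.12 and 9.97 CPM in 2D dSAP (-2.23 ± 0.15, adjusted p = 1.1e-09). ATF4 (-0.93 ± 0.08), PHGDH (-1.32 ± 0.20, and -0.78 on log2(TPM + 1)) and TRIB3 (-1.06 ± 0.11) were lower too, without overlap. The call of SESN2 (-0.35 ± 0.12) was lost without 2D dSAP 2 or 3D dSAP 1 (adjusted p = 0.0774 and 0.0519) and on the TPM values, and PSPH was called lower without 2D dSAP 1 or the library labelled 3D dSRF 1 (adjusted p = 0.0488 and 0.0187).

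In dSRF 9.84% of all genes were lower and 7.19% higher in 3D than in 2D, and 48.2% were called without the library labelled 3D dSRF 1. Of the 10 genes PHGDH (-1.19 ± 0.17, adjusted p = 8.19e-05), SHMT2 (-0.37 ± 0.04) and PSAT1 (-0.33 ± 0.07) were lower in 3D (PHGDH not on log2(TPM + 0.1), adjusted p = 0.123), and DDIT3 (0.47 ± 0.14, adjusted p = 0.0223) was higher. The call of DDIT3 was lost without 3D dSRF 1 (0.19 ± 0.09) or without 2D dSRF 1, 2 or 3 (adjusted p = 0.0603 to 0.0973 over these). TRIB3 was called higher (0.39 ± 0.09) and PSPH lower (-0.31 ± 0.07) without 3D dSRF 1. CHAC1 had 26.6, 23.0 and 24.8 CPM in 3D dSRF, against 24.2, 25.6 and 23.2 CPM in 2D dSRF, with overlap. Its difference was 0.03 ± 0.13 (95% interval -0.25 to 0.31), and that of ATF4 -0.08 ± 0.08 (95% interval -0.24 to 0.08). A fit of the dSRF libraries alone called 0 of 14117 genes by edgeR's quasi-likelihood test, with 1848 at an unadjusted p under 0.05, while DESeq2 on all libraries called 2803.

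**Figure D3:**
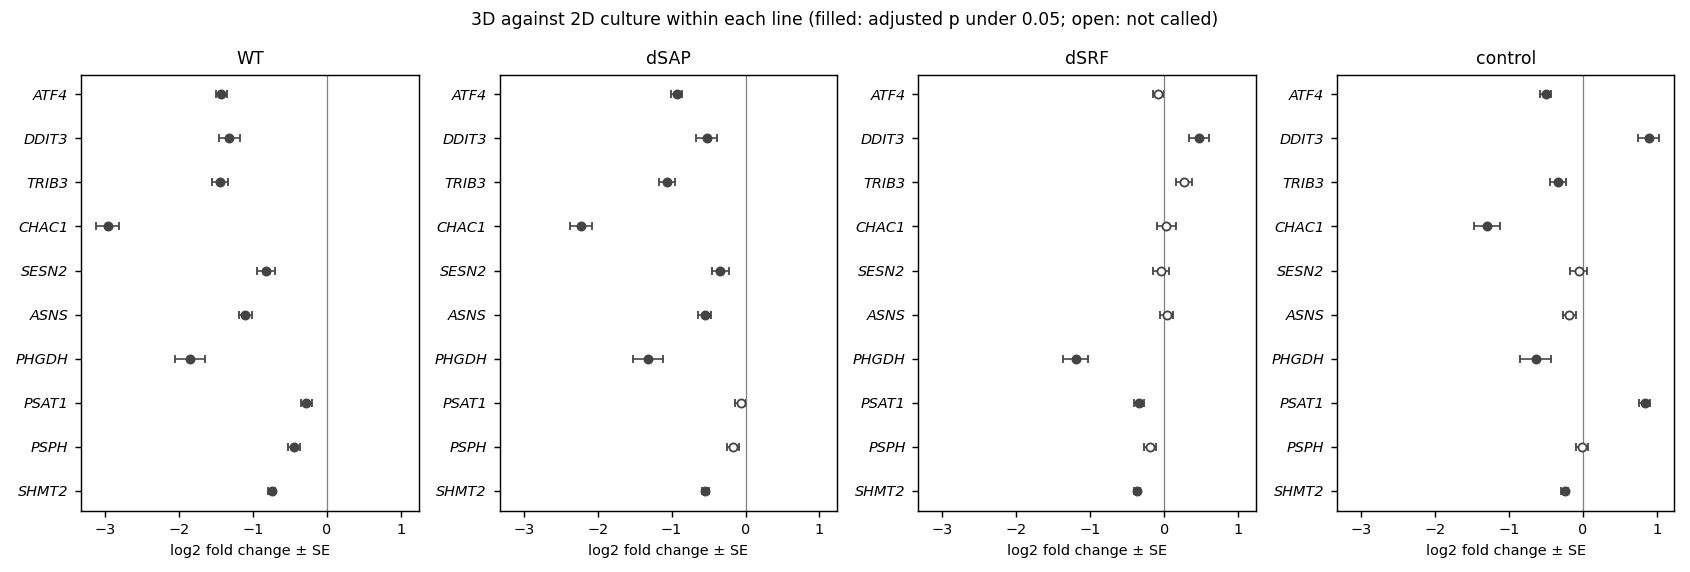
Log2 fold change ± SE (x axis) of 3D against 2D culture for each of the 10 genes, with a panel per line. Filled points are called at an adjusted p under 0.05. All 10 points of WT lie below 0, CHAC1 lowest at -2.96, while CHAC1 in dSRF lies at 0.03 and DDIT3 and PSAT1 in control lie above 0.

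The order of the 8 groups differed between the genes. The highest mean was in 2D dSRF for 4 genes (PSAT1, PHGDH, SHMT2 and SESN2), in 2D WT for 3 (ATF4, ASNS and PSPH) and in 3D dSRF for 3 (DDIT3, TRIB3 and CHAC1). The lowest was in 3D control for 4, in 3D WT for 4, in 3D dSAP for 1 (SHMT2) and in 2D control for 1 (PSAT1). Without the library labelled 3D dSRF 1 the highest mean moved to 2D WT for DDIT3 (16.2 CPM, and 14.7 CPM in 3D dSRF), to 2D dSRF for CHAC1 (24.3 CPM, and 23.9 CPM in 3D dSRF) and to 3D dSRF for SESN2 (46.3 CPM, and 42.1 CPM in 2D dSRF), and the lowest of PSPH to 3D dSRF. For ATF4, 3D dSRF then averaged 178 CPM, above 2D dSRF. With all libraries the highest group mean was 19.4 times the lowest for CHAC1, 16.8 times for PHGDH and 8.21 times for PSAT1, but 1.36 times for PSPH. For ATF4 the order ran from 2D WT (231 ± 2.13 CPM) through 2D dSRF (175 ± 8.004 CPM), 3D dSRF (166 ± 21.8 CPM), 2D dSAP (159 ± 8.06 CPM) and 2D control (118 ± 7.14 CPM) to 3D WT (85.8 ± 0.531 CPM), 3D dSAP (83.4 ± 1.01 CPM) and 3D control (83.1 ± 7.56 CPM). The neighbours from 2D dSRF to 2D dSAP overlapped, and so did 3D dSAP and 3D control. For CHAC1 both dSRF groups overlapped at the top (24.8 ± 1.77 CPM in 3D and 24.3 ± 1.21 CPM in 2D), 2D WT, 2D dSAP and 2D control each stood apart below them, and the 3 lowest, 3D dSAP, 3D WT and 3D control, overlapped with their neighbours.

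A mean z-score over the 10 genes, from the group means of log2 CPM, was -0.87 in 3D WT, -0.85 in 3D dSAP, 0.83 in 3D dSRF (0.77 without 3D dSRF 1) and -0.70 in 3D control. In 2D it was 0.96 in WT, 0.17 in dSAP, 1.05 in dSRF and -0.60 in control. Of the 10 genes CHAC1 followed this mean most closely over the 8 group means (Pearson r = 0.967), then TRIB3 (0.952) and ATF4 (0.938), while PSPH followed it least (0.564, and 0.428 without 3D dSRF 1). These are descriptions over 8 points that share libraries, and each gene is part of the mean. Among 13244 genes with a mean of at least 1 CPM, the 8 others most like it were SLC31A1, a copper importer (r = 0.992), MTM1, a lipid phosphatase (0.982), DMKN (0.976), the syntaxin STX11 (0.975), CTH, which makes cysteine from cystathionine (0.973), the proton pump subunit ATP6V1E1 (0.970), the Golgi protein ACBD3 (0.969) and the transcription factor FOS (0.969). Without 3D dSRF 1, SLC31A1 (0.963) and FOS (0.937) were no longer among the 8 highest, and the other 6 still were.

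Other genes of the pathway were taken from 6 lists, whose counts are read against the shares of all genes called. These shares were 20.1% and 19.2% higher and lower in 2D WT, 17.5% and 15.4% in 2D dSAP and 34.5% and 31.5% in 2D dSRF. In 3D they were 18% and 17% in WT, 16.5% and 13.1% in dSAP and 35.1% and 31.3% in dSRF. Without 3D dSRF 1, 72.8% of all genes were called, higher or lower, in 3D dSRF. Counts in 3D dSRF without that library are read against this share. Of 13 tested further ATF4 targets, 9 were higher and 1 lower in 2D WT than in 2D control (median 0.55, all genes -0.02). The lowest p belonged to VLDLR, a lipoprotein receptor (1.51 ± 0.08), PCK2, mitochondrial phosphoenolpyruvate carboxykinase (0.93 ± 0.06), the death receptor TNFRSF10B (0.55 ± 0.05) and the autophagy gene MAP1LC3B (0.48 ± 0.05). In 3D WT 5 were higher and 2 lower (median -0.07), with VLDLR at 1.32 and DDIT4, a stress-induced inhibitor of mTORC1, at -1.23. In 3D dSRF 7 were higher and 3 lower (median 0.65), and without 3D dSRF 1, 7 and 5 (median 0.50). CTH (2.63, 2.36 without 3D dSRF 1), VLDLR (2.30), PCK2 (1.57) and MAP1LC3B (0.99) had the lowest p there. In 2D dSRF 6 were higher and 4 lower (median 0.22), not far from the shares of all genes, with DDIT4 at -3.31. In dSAP the counts were 6 higher and 2 lower in 2D, and 4 and 4 in 3D.

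ATF4 acts with other transcription regulators, many of them leucine zipper factors, and 6 genes listed as its partners were tested. In 2D WT ATF3 (1.81 ± 0.10), CEBPG (0.86 ± 0.08) and NUPR1 (1.26 ± 0.16) were higher and ATF5 (-0.54 ± 0.13) lower than in control. In 3D WT ATF3 was higher (0.69 ± 0.11) and JDP2 (-1.15 ± 0.15) and CEBPB (-0.57 ± 0.14) were lower. In 3D dSRF ATF3 was higher by 2.69 ± 0.11 (2.60 without 3D dSRF 1), and ATF5 lower (-0.94 ± 0.13, -1.22 without 3D dSRF 1). The effect of WT in 3D was more negative than in 2D for 5 of the 6 and more positive for 1 (median -1.03, all genes 0.01). Of all genes, 4.96% had a more negative and 4.22% a more positive effect.

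Cytosolic aminoacyl-tRNA synthetases, which charge tRNA with amino acids, were measured for all 20 listed. In 2D WT 12 were higher and 2 lower (median 0.33), among them WARS1 (0.78 ± 0.05), CARS1 (0.74 ± 0.05) and GARS1 (0.92 ± 0.08). In 3D WT 3 were higher and 5 lower (median 0.01). In 3D dSRF, where 35.1% and 31.3% of all genes were higher and lower, 14 of the 20 were higher and 2 lower (median 0.54). NARS1 (0.99 ± 0.04), WARS1 (1.03 ± 0.05) and CARS1 (0.94 ± 0.05) were among those of the lowest p. Without 3D dSRF 1, where 72.8% of all genes were called, 13 were higher and 4 lower (median 0.37). In 2D dSRF 11 were higher and 2 lower, in 2D dSAP 8 and 2, and in 3D dSAP 3 and 4.

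Another list holds chaperones of the endoplasmic reticulum, which the ATF6 and XBP1 arms of the unfolded protein response are known to induce. It also holds genes that are not chaperones, among them XBP1, ATF6 and HERPUD1. In 2D WT 12 of the 18 listed genes were higher and none were called lower by edgeR (median 0.38). Among them were HERPUD1 (1.05 ± 0.08), HSPA5, the main chaperone BiP (1.04 ± 0.09), HSP90B1 (0.95 ± 0.07) and HYOU1 (0.69 ± 0.05). In 2D dSRF 7 were higher and 8 lower (median 0.03), where 34.5% and 31.5% of all genes were, with DNAJB11 higher (1.17 ± 0.07) and PDIA6 lower (-0.72 ± 0.08). In 3D dSRF the counts were 5 higher and 7 lower, and 8 and 9 without 3D dSRF 1, where 72.8% of all genes were called. In 3D WT 2 were higher and 3 lower, in 2D dSAP 9 and 2, and in 3D dSAP 3 and 6. Against WT in 2D, 11 of the 18 were lower and 2 higher in dSRF (median -0.47, all genes 0.03). Of all genes, 30.4% were lower and 33.6% higher in that comparison.

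Of the kinases of eIF2 and its phosphatase subunits, EIF2AK3, the ER sensor PERK, was higher in 2D WT (0.64 ± 0.11), 2D dSAP (0.60 ± 0.11) and 2D dSRF (0.71 ± 0.11). PPP1R15A, the stress-induced phosphatase subunit GADD34, was higher in 2D WT (0.52 ± 0.15) and 2D dSRF (1.21 ± 0.15) and lower in 3D WT (-0.80 ± 0.15). In 3D dSRF it averaged 178 CPM, against 99.6 CPM in 3D control (0.50 ± 0.07 without 3D dSRF 1). EIF2AK4, the amino acid sensor GCN2, was higher in 3D dSRF (0.56 ± 0.04, 0.53 without 3D dSRF 1). The kinase gene EIF2AK1 averaged 225 CPM in 3D dSRF, against 143 CPM in 3D control (0.78 ± 0.04 without 3D dSRF 1), and 130 CPM in both 3D WT and 3D dSAP. The list of 7 genes tested also holds EIF2S1, which encodes a subunit of eIF2 itself. Of these 7, 4 were higher and 2 lower in 2D WT, 3 and 1 in 2D dSAP and 4 and none in 2D dSRF. In 3D the counts were none and 2 in WT, 1 and 2 in dSAP and 5 and 1 in dSRF. Without 3D dSRF 1 those of 3D dSRF stayed the same, but 3D WT and 3D dSAP had 3 and 3 each. In 2D, WT then had 5 and 2, dSAP 5 and 2 and dSRF 4 and 1, where 44% to 72.8% of all genes were called in these comparisons. Nothing is read from these counts over 7 genes beside shares of up to 35.1% of all genes with all libraries.

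The folate and glycine genes downstream of SHMT2 make up the last list. MTHFD2, its mitochondrial partner, was higher in 2D WT (0.71 ± 0.07), 3D WT (0.48 ± 0.07), 2D dSRF (0.57 ± 0.07) and 3D dSRF (0.59 ± 0.07, 0.46 without 3D dSRF 1). TYMS, thymidylate synthase, was lower in 2D WT (-0.69 ± 0.15) and 3D dSRF (-1.85 ± 0.15, -2.24 without 3D dSRF 1). Of 13 tested, 3 were higher and 2 lower in 2D WT, 6 and 5 in 2D dSRF, 4 and 6 in 3D dSRF (5 and 5 without 3D dSRF 1), 2 and 2 in 3D WT, none and 5 in 2D dSAP and 1 and 3 in 3D dSAP. In 2D WT, 2D dSRF and 3D dSRF the counts are near the shares of all genes called, and nothing is read from them.

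**Figure D4:**
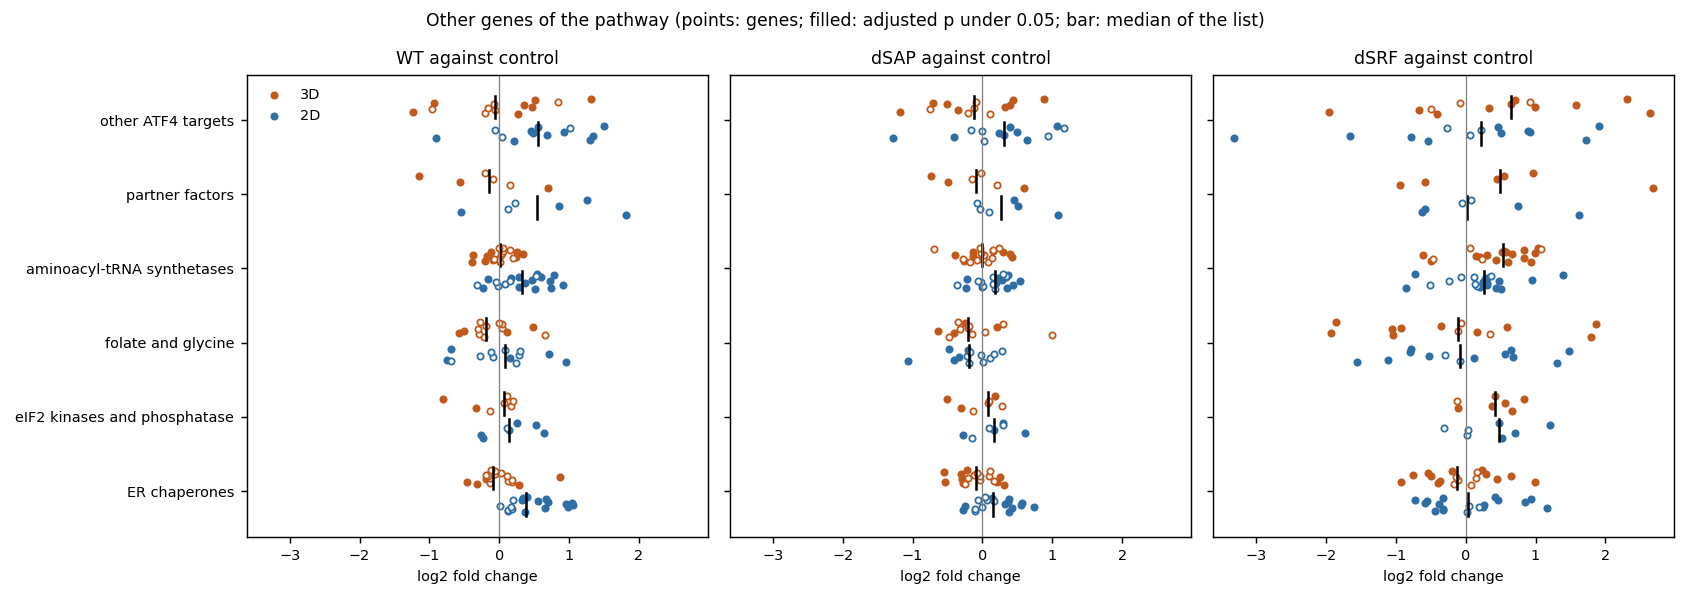
Log2 fold change (x axis) of the tested genes of the 6 wider lists in each MRTF-A line against the control of the same culture, 3D above 2D. Each point is a gene, filled where called, and each bar the median of the list. In 2D WT the medians of ATF4 targets, synthetases and the chaperone list are 0.55, 0.33 and 0.38, and in 3D dSRF those of targets and synthetases are 0.65 and 0.54.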

How the data were processed

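RNA of 24 libraries was sequenced, 3 in each of 8 groups, and groups were read from the titles. Per the labels' protocols, total RNA went into a stranded Illumina kit that depletes ribosomal RNA, while the molecule field says polyA RNA. FastQC, Salmon 11.3, hg38 and GENCODE 29 are named in the submitters' processing notes, with no role given. The authors deposited a table of estimated counts per gene, of which 22.7% were not whole numbers within 0.001, and a table of TPM. Symbols came from a list of gene names, or from the GENCODE 29 annotation where that list had none. Positions came from the GENCODE 29 annotation, which matched 34620 of 37247 IDs.

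Here the estimated counts were rounded and tested with edgeR 4.0.16 (R 4.3.3): low counts removed with filterByExpr, TMM scaling, a model with a mean for each of the 8 groups, and the quasi-likelihood F-test with robust dispersions, on 16 residual degrees of freedom. Each of 17 comparisons was adjusted by Benjamini-Hochberg over 14986 genes and called at an adjusted p under 0.05. CPM values use the TMM library sizes. Differences are log2 fold changes, ± is the standard error of the fit or, after a mean, the SD. The median library held 18154400 counts (lowest 13968800, highest 23023300), and genes varied between replicates with a common coefficient of 13.1%. The alternatives tried were DESeq2 1.42.0, size factors by RLE, testing with no filter, limma 3.58.1 on log2(TPM + 1) and log2(TPM + 0.1), a replicate block, only the libraries compared, and leaving out each library. Figures were drawn with matplotlib 3.10.9 under Python 3.11.15.

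The 10 genes, the wider lists and the tests were chosen with earlier results of these data known. Of each wider list the genes named are among the 4 of lowest p in that comparison, and the genes most like the 10 were those with the highest Pearson r with their mean z-score over the 8 group means.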

Additional observations from a re-analysis of the deposited data

Results flagged for a closer look

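The effect of WT against control differed between 3D and 2D culture, by the interaction term of edgeR's quasi-likelihood test with Benjamini-Hochberg adjustment, for all 10 genes. Among all genes tested, 4.96% had a more negative and 4.22% a more positive effect in 3D. The log2 differences of the effect were -0.93 for ATF4, -2.21 for DDIT3, -1.11 for TRIB3, -1.66 for CHAC1, -0.92 for ASNS, -1.11 for PSAT1, -1.22 for PHGDH, -0.43 for PSPH, -0.50 for SHMT2 and -0.77 for SESN2.

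The effect of dSAP differed between the cultures for 6 genes, by -0.43 for ATF4, -1.42 for DDIT3, -0.73 for TRIB3, -0.93 for CHAC1, -0.90 for PSAT1 and -0.30 for SHMT2. Among all genes tested, 1.2% had a more negative and 1.13% a more positive effect of dSAP in 3D. ATF4 lost its call without any 1 of 16 of the 24 libraries, and CHAC1 without any 1 of 17. That of dSRF differed for 4 genes, by 0.42 for ATF4, 0.60 for TRIB3, 1.33 for CHAC1 and -1.17 for PSAT1. Among all genes tested, 14.7% had a more positive and 14.6% a more negative effect of dSRF in 3D. The count of 4 is not far from these shares, and nothing is read from it. ATF4 lost its dSRF call in an edgeR fit of only the libraries compared (adjusted p = 0.053).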

How the results depend on the processing

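No difference of the 10 genes changed direction with a call under any alternative. Of the single-gene results under the 7 alternatives other than leaving out a library, 1115 kept their side of the threshold, 56 lost and 19 gained a call. With 1 library left out, 3944 kept it, 107 lost and 29 gained a call. The causes were not tested.

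Among the counts of the 10 genes called, 3D WT against control gave 7 and, with no filter, 4 (3 to 8 with 1 library left out). For 3D dSAP against control it was 4, and 8 with only the libraries compared (3 to 7). For dSAP against WT it was 7 in 2D, with 4 on log2(TPM + 0.1) (5 to 9), and 1 in 3D, with 3 from only the libraries compared (1 to 4). Between 3D and 2D dSRF it was 4, with 0 from only the libraries compared (3 to 5), where edgeR called 0 of 14117 genes. For the dSAP effect in 3D against 2D it was 6, with 3 on log2(TPM + 0.1) (3 to 7).

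Over all genes, with 1 library left out, 3D dSAP against control gave 3517 to 6715 calls (4435 with all). For dSAP against WT the calls were 1919 in 2D, 4288 with only the libraries compared (1171 to 4220 leaving 1 out), and 1810 in 3D, 4607 with only those libraries (1186 to 4149). Between 3D and 2D dSRF they were 2551, 1693 and 1609 on log2(TPM + 1) and log2(TPM + 0.1), and 1599 to 7351 leaving 1 out. The effect of WT in 3D against 2D gave 1376, 909 and 870 on TPM, 3463 with only the libraries compared and 973 to 3636 leaving 1 out. That of dSAP gave 350, 200 and 164 on TPM, 599 by DESeq2, 1400 with only the libraries compared and 206 to 1738 leaving 1 out. That of dSRF gave 4379, 2642 with only the libraries compared and 3679 to 6680 leaving 1 out. In each of these, the highest count with 1 library left out came without 3D dSRF 1.

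Replicate numbers did not pair the libraries: same-numbered libraries deviated together with correlations of -0.131 to 0.108, and in 0 of 14 comparisons was each over 0.1. With the replicate block the 10 genes called in 2D WT became 9 (PSPH, adjusted p = 0.0513), the 7 of 2D dSAP against WT 6 (PSPH, adjusted p = 0.0592) and the 6 of the dSAP effect 5 (CHAC1, adjusted p = 0.0625), and 5891 genes in 2D WT became 5777. PHGDH and CHAC1 rest on the fewest counts, down to 15 and 19 per library.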
